A study of Homo sapiens with 12 samples.

Results

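The 2 hormone receptor genes ESR1 and PGR and 7 transcription factor genes of the luminal breast lineage were followed in RNA sequencing of the breast cancer line HCC1954, which is of human origin, carries an amplified ERBB2 (HER2) gene and is commonly described as lacking estrogen and progesterone receptor. The genes were ESR1, PGR, GATA3, FOXA1, TFAP2A, TFAP2B, TFAP2C, SPDEF and ELF5. They were chosen by name, and all 9 had a row among the 56269 rows of the deposited count table. The labels give 12 cultures in 4 groups of 3 biological replicates, all kept for 24 h with SNXB at 1 µM, lapatinib at 1 µM, a combination of agents whose doses the labels do not give, or the solvent DMSO. Lapatinib inhibits the EGFR and ERBB2 kinases, and SNXB is known here only by that name. The names of the 12 count columns, S13 to S24, match no sample title, so no column could be given a treatment or a replicate number. The columns are therefore described as 12 cultures of 1 line under unknown treatment, with no comparison of treatments and no test. They all come from 1 cell line and are no sample of different tumours or people.

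In the normal breast, luminal cells line the ducts and alveoli, and a layer of basal cells surrounds them. ESR1 encodes estrogen receptor alpha, a hormone-activated transcription factor, and PGR encodes the progesterone receptor, whose gene is itself induced by estrogen through ESR1 in breast cells. FOXA1 opens chromatin so that ESR1 can bind, GATA3 specifies and maintains luminal cells, and the AP-2 factors TFAP2A, TFAP2B and TFAP2C bind GC-rich elements in genes of epithelial cells, including ERBB2. SPDEF and ELF5 are both ETS family factors of epithelia: SPDEF is tied to luminal and secretory differentiation, and ELF5 directs the milk-producing alveolar lineage, as worked out mainly in mice.

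The sequences below precede a RefSeq transcript start of 5 of these genes, the expressed and the nearly silent member of the AP-2 and the ETS families and the most abundant of the 9, and are shown as the genomic setting of the levels that follow. Each is taken from the 250 bases before a transcript start in RefSeq (GRCh38.p14), restricted to the longest stretch without an exon of the deposited table, and is written 5′ to 3′ on the strand of the gene. For TFAP2A, TFAP2B and SPDEF the stretch lies upstream of the gene as the deposited table gives it, and for ELF5 and FOXA1 it lies inside the gene, before an internal start. Capitals mark a match to the forkhead letters TGTTTNC on either strand.
TFAP2A chr6:10419660-10419909 (- strand): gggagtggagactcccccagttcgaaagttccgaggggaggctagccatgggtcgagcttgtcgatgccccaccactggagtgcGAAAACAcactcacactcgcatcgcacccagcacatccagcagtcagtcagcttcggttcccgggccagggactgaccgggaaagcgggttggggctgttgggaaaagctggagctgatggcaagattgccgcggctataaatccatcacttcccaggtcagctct
TFAP2B chr6:50818621-50818722 (+ strand): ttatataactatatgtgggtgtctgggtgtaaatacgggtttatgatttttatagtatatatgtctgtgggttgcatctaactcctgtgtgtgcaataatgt
SPDEF chr6:34556334-34556579 (- strand): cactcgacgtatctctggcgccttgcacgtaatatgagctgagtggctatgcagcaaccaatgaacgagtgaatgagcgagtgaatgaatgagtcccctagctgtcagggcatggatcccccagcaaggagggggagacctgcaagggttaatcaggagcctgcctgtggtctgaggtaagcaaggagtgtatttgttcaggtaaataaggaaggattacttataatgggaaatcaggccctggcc
ELF5 chr11:34511829-34511974 (- strand): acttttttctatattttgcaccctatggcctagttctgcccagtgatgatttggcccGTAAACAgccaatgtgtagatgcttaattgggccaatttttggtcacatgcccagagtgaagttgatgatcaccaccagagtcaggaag
FOXA1 chr14:37595349-37595499 (- strand): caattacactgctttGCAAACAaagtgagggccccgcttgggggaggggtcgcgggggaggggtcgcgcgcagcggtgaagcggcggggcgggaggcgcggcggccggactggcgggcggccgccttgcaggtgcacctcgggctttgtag
The TFAP2A stretch had a GC content of 59.6% and 13 CpG dinucleotides, and the FOXA1 stretch, of 151 bases, had 72.2% and 18. Exonic bases were left out in the windows of TFAP2B (148), ELF5 (104), FOXA1 (99) and SPDEF (4). Their stretches therefore do not reach the start. The TFAP2B stretch, of 102 bases, had 34.3% GC and 1 CpG, and the ELF5 stretch, of 146 bases, had 44.5% and 1. The SPDEF stretch lay between these with 51.2% and 6 in 246 bases. That order depended on leaving out exonic bases. In the whole windows of 250 bases, GC content was 67.2% for FOXA1 and 59.6% for TFAP2A. It was 51.6% for ELF5, 50.8% for SPDEF and 40.8% for TFAP2B.

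Such windows were found for 8 of the 9 genes, 21 windows in all, and not for TFAP2C. Over all 35114 windows of 250 bases in the same RefSeq table, the median GC content was 58% and the median number of CpG dinucleotides was 11. The window of FOXA1 had 26 CpG, the 2 windows of TFAP2A had 13 and 15, and the 6 windows of GATA3 had 4 to 30. The 6 windows of ESR1 had 2 to 11 and the 3 windows of PGR had 5 to 12. The single windows of ELF5, TFAP2B and SPDEF had 2, 5 and 6. A relation of these values to the level of a gene was not tested. Short motifs were searched on both strands, chosen with the windows in view, and they can overlap. The forkhead letters TGTTTNC stood in 15.5% of all windows, and in 1 window each of FOXA1, TFAP2A, GATA3 and ELF5. The AP-2 letters GCCNNNGGC stood in 19.8% of all windows, in 3 of the 6 windows of GATA3 and in 2 of the 3 windows of PGR, which overlap each other. The GATA letters AGATAA stood in 9.17% of all windows and the palindromic estrogen response element in 0.0399%. Neither was found in a window of the 9 genes, and the 6 windows of ESR1 held none of the 4 motifs. These are matches of letters within short windows, and no binding was measured.

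Between 9289353 and 12219397 fragments were counted per column. A count of 0 in 1 column allows a level of up to 3 counts, which is 0.246 to 0.323 CPM depending on the column, where CPM is the count scaled to a common library total (counts-per-million), and over all columns together it allows 0.0231 CPM. These limits, and the 95% intervals given for counts, cover counting error only. Pearson correlations between columns across 9716 genes with a median count of at least 100 ran from 0.864 to 0.987, with no gap wider than 0.0135 among the 66 pairs. No pair of columns agreed within counting noise. Scaling factors by the trimmed mean of M values (TMM), which correct for a few genes taking up much of a library, were 0.901 to 1.06, a span of 0.23 on the log2 scale, and were lowest in S21 to S24. The labelled cell type was checked by its markers: ERBB2 lay between 3869 and 9322 CPM (median 5889), all 13 luminal markers and 13 of 17 basal markers reached 1 CPM in every column, and all 7 blood cell markers stayed below 1 CPM in every column. Of 7 fibroblast markers COL1A1 and FAP reached 1 CPM in every column, and of 5 endothelial markers PECAM1, CDH5 and VWF did. Of the genes that GENCODE lists as protein-coding, 56.9% did, so passing this limit alone does not identify a cell type.

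Of the 9 genes, 6 were expressed and 3 were not, by a limit of 1 CPM in every column. FOXA1, TFAP2C, SPDEF, GATA3, TFAP2A and ESR1 reached it in all 12 columns, as did 21.9% of all rows of the table (12303 rows) and 56.9% of the genes that GENCODE lists as protein-coding. PGR, TFAP2B and ELF5 stayed below 1 CPM in all 12 columns, as did 39816 rows. No gene of the 9 crossed the limit between columns.

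**Figure D1:**
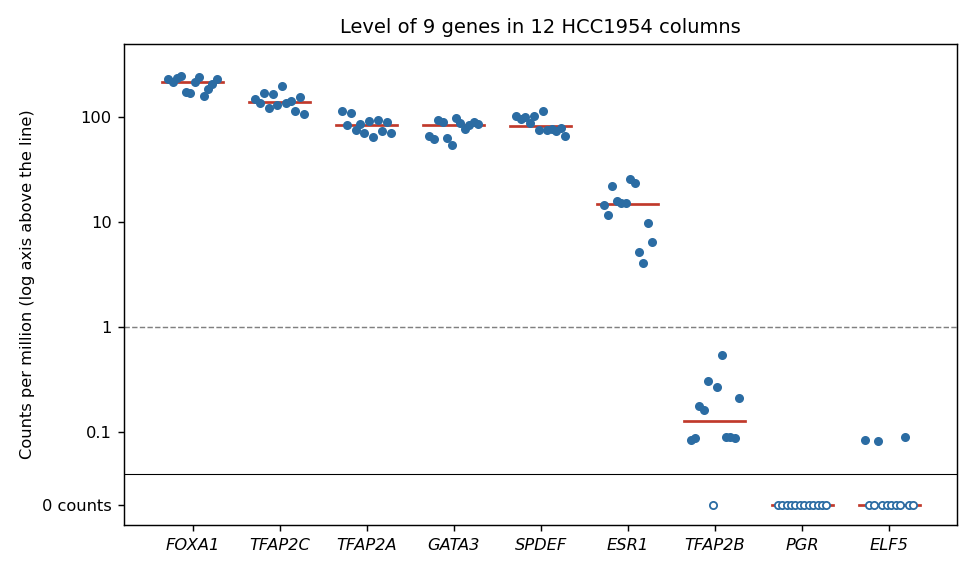
Level of the 9 genes in CPM (log axis; open symbols below the line are columns with 0 counts). Each point is 1 of the 12 HCC1954 columns and the red bar is the median. The 6 genes from FOXA1 to ESR1 lie above 1 CPM (dashed line) in every column and TFAP2B, PGR and ELF5 lie below it in every column.

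Of the steroid receptors, ESR1 was read at a low level in every column and PGR in none. ESR1 spans chr6:151656691-152129619 on the plus strand and shares no exonic base with another row (GRCh38, as in the deposited table). ESR1 had 14.6 CPM in S13, 11.8 in S14, 21.9 in S15, 15.8 in S16, 15.1 in S17, 15.2 in S18, 26.0 in S19, 23.9 in S20, 5.24 in S21, 4.07 in S22, 9.89 in S23 and 6.53 in S24. S19, S20 and S15 were the highest, and S21 to S24 were the 4 lowest, each below every other column. The lowest value rests on 45 counts and the highest on 290. The ratio of highest to lowest was 6.39, with a nominal 95% counting interval of 4.65 to 8.95. The 2 columns were picked as the extremes of 12, so a place of this interval above 1 is partly built in. The same holds for the ratio intervals of the other genes below. Among the 9716 rows with a median count of at least 100, whose median ratio was 1.68, 2.19% had a ratio as large or larger. The 4 columns lowest in ESR1 were the 4 with the lowest TMM factors, and on TMM library sizes the ratio was 5.498. In bulk RNA, fewer cells with a transcript and less of it per cell cannot be told apart.

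PGR, at chr11:101029624-101130524 on the minus strand, had 0 counts in all 12 columns, over 15404 exonic bases, which allows up to 0.0231 CPM over the pooled columns. Its row shared 5.27% of its exonic bases with a feature on the opposite strand.

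ESR1 stood low for an expressed gene. Divided by its 13629 exonic bases, its median level was 1.09 CPM per kb, against a median of 7.05 CPM per kb over the 12303 rows expressed in every column, and 91.5% of those rows lay above it. Its rank was 12262 among all rows and 9959 among the protein-coding ones. Counting the longest coding transcript only, a length chosen after the data were seen, gave 2.30 CPM per kb. That length was not applied to the rows ESR1 was ranked against. By CPM, not divided by length, its median was 14.8, against a median of 33.2 over the expressed rows.

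Of 19 other nuclear receptor genes listed, 14 reached 1 CPM in every column, 3 in none and 2 in some. Of all protein-coding genes, 56.9% reached it in every column. The highest per kb were ESRRA, an estrogen-related orphan receptor, with a median of 23.8 CPM per kb, PPARD, a fatty acid sensor, with 20.1, and RXRA, the common partner of many of these receptors, also with 20.1. Of the relatives of ESR1 and PGR that bind adrenal steroids, NR3C1, the glucocorticoid receptor, had a median of 3.53 CPM per kb and NR3C2, the mineralocorticoid receptor, 1.54, both above the 1.09 CPM per kb of ESR1. Per kb, the range of NR3C1 over the columns lay wholly above that of ESR1, and the range of NR3C2 overlapped it. This order depended on dividing by length. By CPM the median of ESR1 was 14.8, above the 10.2 of NR3C2 and below the 32.4 of NR3C1. The lowest column of NR3C1, with 23.1 CPM, then lay below the highest of ESR1, with 26.0. ESR2, which encodes estrogen receptor beta, had at most 7 counts in a column and a median of 0.240 CPM.

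**Figure D2:**
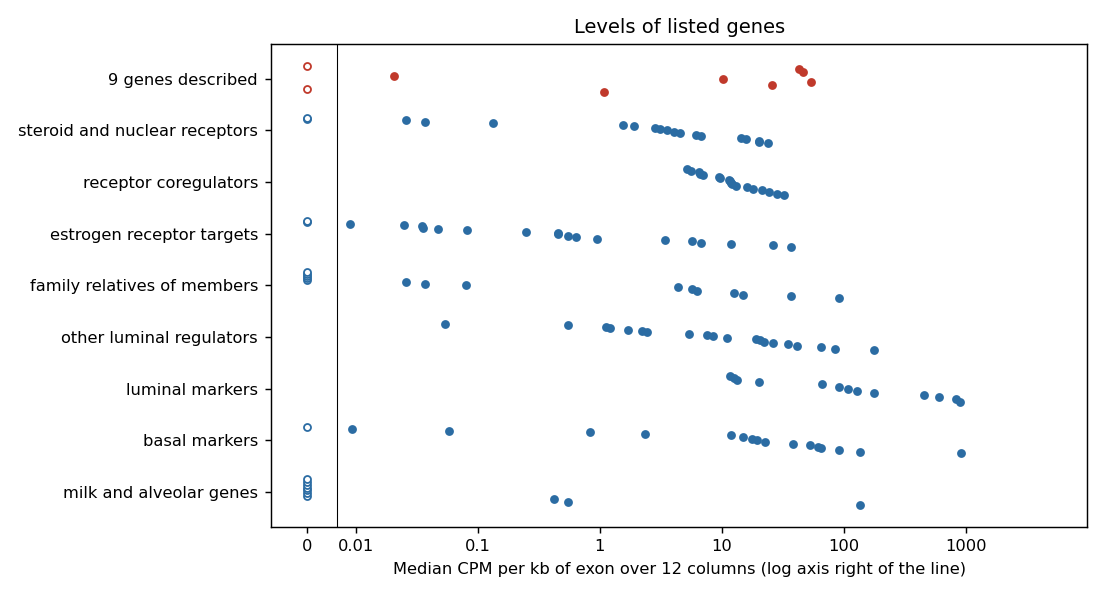
Median level over the 12 columns of the 9 genes (red) and of the genes in 8 lists (blue), in CPM per kb of exon on a log axis, with genes whose median is 0 left of the line. The receptor coregulators lie between 5.20 and 32.7 CPM per kb, and the estrogen receptor targets spread from 0 to 36.9.

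All 18 listed coregulators of steroid receptors reached 1 CPM in every column, and 9 of 20 textbook targets of ESR1 did. Of all rows 21.9% did, and of the protein-coding genes 56.9%. The 18 coregulators had a median of 11.8 CPM per kb. PRMT1, an arginine methyltransferase that coactivates receptors, was highest with 32.7 CPM per kb, followed by the coactivator NCOA3 with 28.6 and the corepressor NRIP1 with 24.7. Of 20 genes known to be induced by estrogen through ESR1 in other breast cancer lines, 8 stayed below 1 CPM in every column and 3 reached it in some, and the median of the list was 0.452 CPM per kb. AGR2, a protein disulfide isomerase of secretory cells, led with 36.9 CPM per kb, before the zinc transporter SLC39A6 with 26.2 and the cadherin CELSR2 with 12.03. GREB1, a cofactor of ESR1, had at most 8 counts in a column and TFF1, a secreted trefoil peptide, at most 9. TFF3 and CXCL12 had 0 counts throughout. Activity of the receptor itself was not measured.

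FOXA1, at chr14:37589984-37596059 on the minus strand, was the most abundant of the 9 genes per kb. It had 231 CPM in S13, 215 in S14, 237 in S15, 248 in S16, 174 in S17, 169 in S18, 218 in S19, 240 in S20, 159 in S21, 186 in S22, 207 in S23 and 230 in S24. S21, S18 and S17 were lowest and S16 and S20 highest, and the ratio of highest to lowest was 1.55 (95% counting interval 1.47 to 1.65), less than the median ratio of 1.68. Its median of 54.4 CPM per kb placed it at rank 791 of all rows and 731 of the protein-coding ones, with 6.42% of expressed rows above it. Its paralogs FOXA2 and FOXA3, the other liver-type forkhead factors, had at most 1 count in any column.

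GATA3, at chr10:8053604-8075198 on the plus strand, had 65.8 CPM in S13, 62.4 in S14, 93.2 in S15, 90.8 in S16, 63.9 in S17, 54.3 in S18, 97.7 in S19, 88.8 in S20, 77.1 in S21, 83.7 in S22, 89.7 in S23 and 85.6 in S24. S13, S14, S17 and S18 had the lowest values, 54.3 to 65.8 CPM, and the other 8 columns lay apart from them at 77.1 to 97.7 CPM. The ratio of highest to lowest was 1.80 (1.62 to 2.0001), and 40.9% of the 9716 rows had a ratio at least as large. Without S18 it was 1.57. At 26.0 CPM per kb GATA3 ranked 1902 of all rows. GATA2 and GATA6 were read in every column: GATA2, best known from blood and endothelium, with a median of 6.22 CPM per kb, and GATA6, known from endoderm and heart, with 5.73. GATA1, GATA4 and GATA5 stayed below 1 CPM. The antisense row GATA3-AS1 had at most 6 counts in a column, and no exonic base of GATA3 was shared with another row.

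**Figure D3:**
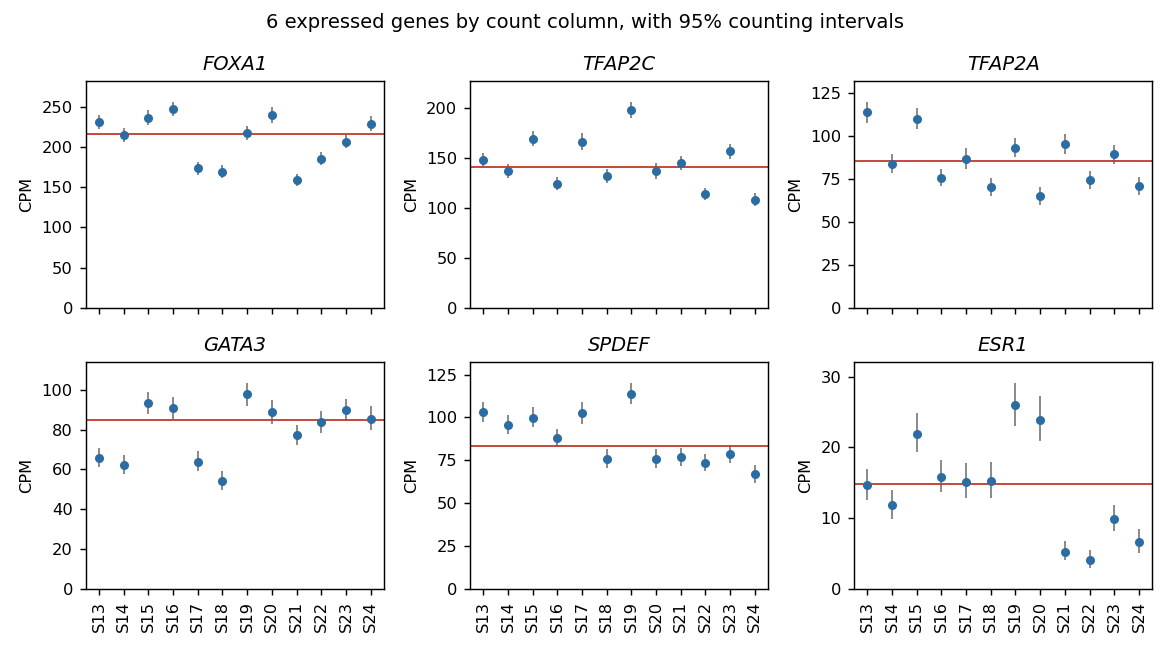
CPM of the 6 expressed genes in each of the 12 columns, with exact 95% intervals for the counts; the red line is the median over the columns and each axis starts at 0. ESR1 lies between 4.07 and 26.0 CPM and spans 6.39-fold, and the other genes span 1.55- to 1.84-fold.

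Of the AP-2 factors, TFAP2C and TFAP2A were expressed and TFAP2B was near 0. TFAP2C, at chr20:56629302-56639283 on the plus strand, had 148 CPM in S13, 136 in S14, 169 in S15, 124 in S16, 166 in S17, 132 in S18, 198 in S19, 137 in S20, 144 in S21, 114 in S22, 156 in S23 and 108 in S24. S19 was highest, and S24 and S22 were lowest. The ratio of highest to lowest was 1.84 (1.70 to 1.98), 1.68 on TMM library sizes and 1.57 without S19.

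TFAP2A had 114 CPM in S13, 83.7 in S14, 110 in S15, 75.5 in S16, 86.7 in S17, 70.1 in S18, 93.1 in S19, 64.8 in S20, 95.2 in S21, 74.1 in S22, 89.2 in S23 and 70.7 in S24. S13 and S15 were highest and S20 lowest, with a ratio of 1.75 (1.59 to 1.93). Per kb, TFAP2C had a median of 46.8 and TFAP2A of 10.3, and TFAP2C lay above TFAP2A in all 12 columns. With the longest coding transcripts the medians were 49.1 and 22.2. Of the exonic bases of TFAP2A, 5.31% also belonged to TFAP2A-AS1 on the opposite strand, which itself had 4 to 17 counts per column.

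TFAP2B had 22 counts in all, 0 to 5 per column, with at least 1 in 11 of the 12 columns. That is 0.169 CPM over the pooled columns and at most 0.538 CPM in a column. Of the remaining paralogs TFAP2E, with at most 6 counts per column, and TFAP2D, with 0 throughout, also stayed below 1 CPM. TFAP2A and TFAP2B both lie on chromosome 6, TFAP2A at chr6:10393186-10419659 on the minus strand and TFAP2B at chr6:50818723-50847613 on the plus strand (GRCh38).

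Of the ETS factors among the 9 genes, SPDEF was expressed and ELF5 was near 0. SPDEF, at chr6:34537802-34556333 on the minus strand, had 103 CPM in S13, 95.8 in S14, 99.9 in S15, 87.9 in S16, 102 in S17, 75.9 in S18, 114 in S19, 75.8 in S20, 76.7 in S21, 73.6 in S22, 78.5 in S23 and 66.9 in S24. S19 was highest and S24 lowest, and the ratio was 1.70 (1.55 to 1.88), close to the median of all 9716 rows; without S19 it was 1.54. With only 1914 exonic bases, its median of 43.5 CPM per kb ranked 1039 of all rows. That place depended on dividing by length: 1.84% of all rows lay above SPDEF per kb, against 5.31% by CPM.

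ELF5, at chr11:34478793-34513805 on the minus strand, had 1 count each in S13, S16 and S22 and none elsewhere, which is 3 counts over all columns. Its close relatives ELF3 and EHF, epithelial ETS factors of the same subfamily, had medians of 91.9 and 37.0 CPM per kb, and the broadly expressed ELF1 had 15.1. ELF4 and ELF2 had 12.6 and 4.36. Among 10 genes of milk and alveolar cells, the lineage that ELF5 directs, 7 stayed below 1 CPM in every column. These included the caseins CSN1S1, CSN2 and CSN3, which had 0 counts throughout. Of all 56269 rows of the table, 39816 also stayed below 1 CPM. Of the 10 genes, 2 reached 1 CPM in every column, against 56.9% of the protein-coding genes. Whether the list differs from other genes was not tested. ALDH1A3, a retinaldehyde dehydrogenase, led the 10 genes with 137 CPM per kb. The prolactin receptor PRLR followed with 0.549 and the lipase CEL with 0.421.

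Ordered by median CPM per kb, the expressed genes ran FOXA1 (54.4), TFAP2C (46.8), SPDEF (43.5), GATA3 (26.0), TFAP2A (10.3) and ESR1 (1.09). FOXA1 exceeded TFAP2C in 7 of the 12 columns and TFAP2C exceeded SPDEF in 8, and the ranges of these neighbours overlapped, so by these lengths the order of the first 3 was not distinguishable from the spread over the columns. SPDEF lay above GATA3, GATA3 above TFAP2A and TFAP2A above ESR1 in 12 of 12 columns, with no overlap of ranges. With the longest coding transcripts the order of the medians was the same, but FOXA1 lay above TFAP2C in 12 of 12 columns. GATA3 then lay above TFAP2A in 7 of 12, with overlapping ranges of 17.4 to 31.3 and 16.9 to 29.7 CPM per kb. The medians of all but ESR1 exceeded the 7.05 CPM per kb of expressed rows in general.

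The other genes of the lineage set these levels in context. Of 20 other genes listed as luminal regulators, 19 reached 1 CPM in every column, against 56.9% of all protein-coding genes. Most of the 20 are transcription factors, but the receptor gene PRLR is among them. XBP1, a factor of secretory cells and the unfolded protein response, was highest with 177 CPM per kb, then CEBPB with 84.4 and KLF5 with 65.4. The luminal markers CD24, KRT8 and KRT18 had 907, 832 and 602 CPM per kb. The 13 basal genes at 1 CPM or more in every column were led by the keratin KRT17 with 922 CPM per kb. The P-cadherin gene CDH3 followed with 135 and CAV1 with 92.2. Of 15 genes tied to apocrine breast cells, 7 reached 1 CPM in every column and 6 did not in any. By median they were led by ALCAM with 50.8, HPGD with 14.2 and KYNU with 7.56 CPM per kb. Over the columns HPGD ranged from 0.965 to 56.6 CPM per kb, a 58.6-fold span. In the ERBB2 amplicon ERBB2 had 571 CPM per kb, GRB7 348 and STARD3 220.

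Ratios taken within a column do not depend on its library size. ESR1 counts came to 2.19% to 11.9% of FOXA1 counts, with a median of 6.35%, a 5.44-fold span, and to 4.86% to 28% of GATA3 counts, with a median of 20.6%. The same 4 columns, S21 to S24, were lowest in both, so their low place stands without any library scaling. FOXA1 had 2.07 to 3.51 times the counts of GATA3. TFAP2A had 0.471 to 0.767 times the counts of TFAP2C, with S19 and S20 lowest and S13 highest, and SPDEF had 0.502 to 0.709 times those of TFAP2C, the narrowest of these ratios with a span of 1.41-fold.

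**Figure D4:**
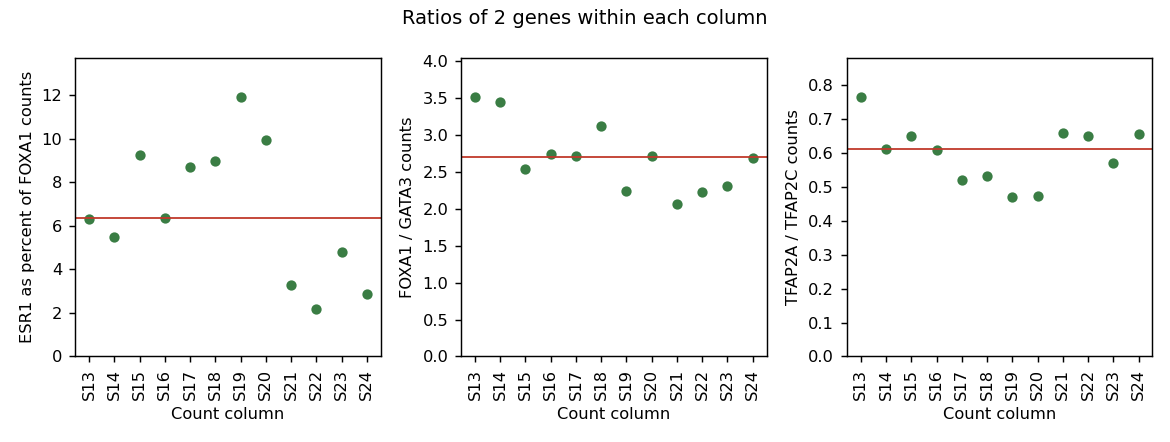
Counts of 1 gene relative to another within each of the 12 columns, not divided by length; the red line is the median and each axis starts at 0. ESR1 lies between 2.19% and 11.9% of FOXA1, lowest in S21 to S24, and the ratio of FOXA1 to GATA3 lies between 2.07 and 3.51.

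Among the expressed genes, the pairs formed by TFAP2A, TFAP2C and SPDEF had the highest correlations over the columns, and GATA3 and FOXA1 had a lower one. The values are correlations of log2(CPM + 0.5) over 12 columns of 1 line that hold 4 treatments in triplicate, in an order not known here, so they are a description with no p. TFAP2C and SPDEF had a Pearson r of 0.79 (Spearman rho 0.79), and 0.58 without S19 and S24, the columns farthest from the median of TFAP2C. TFAP2A and SPDEF had r = 0.67 (rho 0.73; 0.60 without S13 and S20), and TFAP2A and TFAP2C r = 0.65 (rho 0.70; 0.79 without S13 and S20). On TMM library sizes these 3 were 0.73, 0.66 and 0.64. GATA3 and FOXA1 had r = 0.53 (rho 0.59; 0.47 without S14 and S18), and 0.55 with TMM, where rho was 0.31.

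The correlations of ESR1 depended on the scaling. With SPDEF it had r = 0.63 (rho 0.49; 0.56 without S21 and S22) and with TFAP2C r = 0.62 (rho 0.49; 0.64 without them), but 0.37 and 0.35 with TMM. With FOXA1 it had r = 0.48 (rho 0.54), which rested on S21 and S22, since without them r was 0.12, and with TMM it was 0.13. With GATA3, r was 0.09 by total counts and -0.18 by TMM, and with TFAP2A 0.15 and -0.14. Of all 15 pairs, 5 had r of at least 0.6 and 8 lay between -0.3 and 0.3. With TMM, 3 had r of at least 0.6. The lowest by total counts was -0.04, for GATA3 and SPDEF, and with TMM -0.31, for FOXA1 and TFAP2C (rho -0.38). How often such values occur among all pairs of rows was not computed, so these counts do not set the genes apart from other genes.

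**Figure D5:**
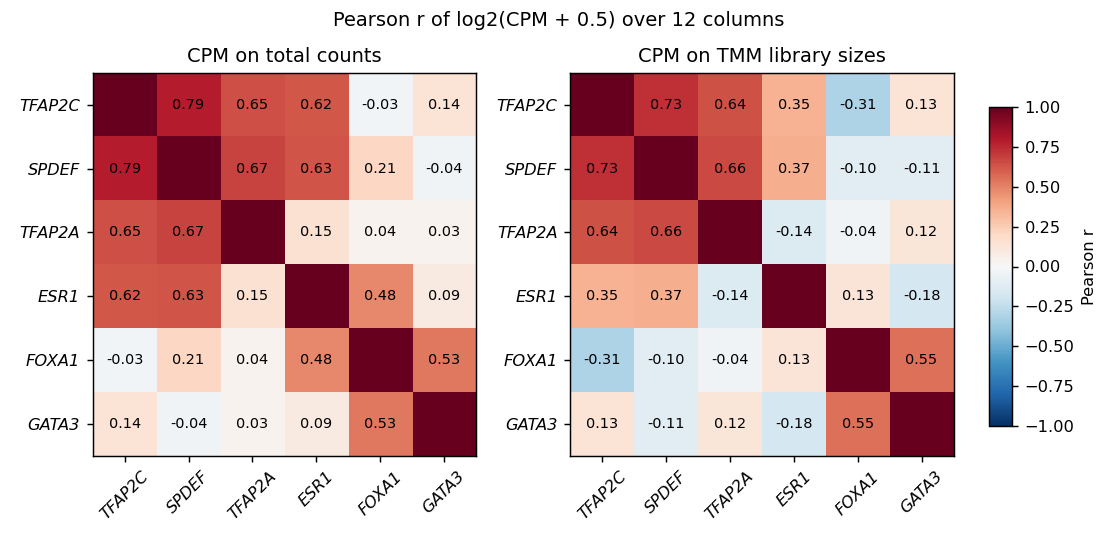
Pearson r of log2(CPM + 0.5) over the 12 columns for each pair of the 6 expressed genes, with CPM on total counts (left) and on TMM library sizes (right); red is positive and blue negative. TFAP2C, SPDEF and TFAP2A have r between 0.65 and 0.79 on total counts and between 0.64 and 0.73 with TMM, and the values of ESR1 are lower with TMM in every pair.

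Among the 9716 rows, those whose log2 CPM ran most like a given gene are named by rank alone. Over the 12 columns, ANKRD50, RSRP1 and PHLDB1 ran most like ESR1, with r of 0.983, 0.980 and 0.980, and TMEM127, ARF4 and FGFR2 most like GATA3, with 0.928, 0.909 and 0.909. MBD5, IKZF2 and TBC1D8B ran most like FOXA1, with 0.948, 0.946 and 0.946. FAM122A, ELMSAN1 and GAS2L3 ran most like TFAP2A, with 0.961, 0.931 and 0.927, and RNF24, VPS37C and ARHGAP27 most like TFAP2C, with 0.930, 0.930 and 0.929. For SPDEF these were ZNF335, FBXW5 and LIMD1, with 0.921, 0.914 and 0.913. No gene of the 9 was among the 3 most like another. These are the highest of 9716 correlations over 12 columns each, and high values among so many are no sign of a link.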

How the data were processed

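Counts per gene were deposited by the authors in 1 table; per the file headers they come from featureCounts 1.4.6 in paired-end mode on GENCODE 25, summed by gene name, with no strand, multi-overlap or multi-mapping option. Its command names 24 alignment files and the table holds 12 columns. Per the submitters' processing notes, Trim Galore 0.4.5, STAR 2.4 and hg38 (GRCh38) were used, and per the labels' protocols the kit was directional. Since the counting set no strand option, the strand of a read did not decide its gene. With no multi-overlap option, a read over exons of 2 genes is left unassigned. Bases shared with an antisense row can therefore lower the counts of both rows.

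CPM was computed here on total counts, which were 9289353 to 12219397 per column, and CPM per kb on the deposited exonic length. Correlations used a pseudocount of 0.5. TMM factors came from edgeR 4.0.16 in R 4.3.3, with no count test; the rest used Python 3.11.15 with scipy 1.17.1. The level, ratio and correlation steps were checked on simulated data. Counting intervals are at 95%, and the limit of a 0 is 3 counts. Those of ratios compare the highest and the lowest column, picked by value, and so are nominal.

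No column name is a sample title, so columns were not grouped by order or value, and no test was run. Named were the 9 genes, the 3 highest genes per kb of each list with the relatives of the 9, and, for each of the 9 with a median count of at least 50, the 3 most like rows with a median count of at least 100. GREB1, TFF1, TFF3, CXCL12, the 3 caseins, the 2 antisense rows and the marker genes given for other cell types fall outside this rule and were chosen after their values were seen. Genes and lists were chosen with earlier results of these data known. Gene types came from GENCODE 29 by name. Alternatives were other scalings, limits and pseudocounts, each column left out, and another length. A relative of the 9 genes is not reported here by name.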

Additional observations from a re-analysis of the deposited data

How the results depend on the processing

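The number of the 9 genes at the limit in every column was 6 with 0.5 CPM, with 10 counts, with TMM and with median-of-ratios scaling, and 5 with 5 CPM, where ESR1 dropped out. No paired analysis was possible because the count columns carry no replicate number. Leaving out each column in turn, the ratio of highest to lowest CPM ran from 4.96 to 6.39 for ESR1, 1.46 to 1.55 for FOXA1, 1.57 to 1.80 for GATA3, 1.54 to 1.70 for SPDEF, 1.62 to 1.75 for TFAP2A and 1.57 to 1.84 for TFAP2C. With median-of-ratios scaling, the ratio of ESR1 was 5.56. The length of the longest coding transcript, an alternative chosen after seeing the data, gave 75.6 CPM per kb for FOXA1, 27.1 for GATA3 and 43.9 for SPDEF. Depth limits PGR, TFAP2B and ELF5: with at most 5 counts in a column, differences between columns were not detectable. Ranks depended on dividing by length: by CPM in place of CPM per kb, the share of all rows above a gene was 5.21% against 3.38% for GATA3, 5.17% against 8.40% for TFAP2A, 2.86% against 1.71% for TFAP2C, 15.3% against 21.8% for ESR1 and 1.59% against 1.404% for FOXA1. The order by coding transcript in each column and the counts of pairs with TMM were also chosen after seeing the data.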
